A study of Mus musculus with 10 samples.

Results

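The epidermal growth factor receptor gene Egfr, the ligand genes Areg, Ereg, Hbegf, Tgfa and Nrg1, the hepatocyte growth factor gene Hgf and the Sprouty genes Spry1, Spry2 and Spry4 were followed across 5 groups of mouse embryonic fibroblasts. Members were taken as every probe set annotated to these 10 symbols, which gave 24 of the 45101 probe sets in the series, for 9 of the 10 genes. No probe set was annotated to Areg, which was not analysed here. A probe set was tested where its highest group mean reached 4 on the log2 scale, a level that 20681 probe sets passed. Of the 24, 14 passed, and they belonged to 8 genes. The other 10 probe sets read between 1.95 and 3.95 in every array, among them all 3 for Tgfa (1.95 to 3.36).

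The arrays covered conditional Dicer knockout cells (CDKO), left untreated or given 1 µM or 5 µM 4-hydroxytamoxifen (OHT), and wild-type (WT) cells, given 5 µM OHT or left untreated. Treatment lasted 4 days, and each of the 5 groups had 2 arrays. Dicer cuts microRNA precursors into mature microRNAs, and OHT is a modulator of estrogen receptors that also switches on recombinases fused to a mutant estrogen receptor. The recombinase, its promoter and whether the line is a clone were not named in the sources at hand. The labels do not tie arrays of a group to separate cultures, and the p-values then measure a spread between arrays that may be technical.

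EGFR is a receptor tyrosine kinase. Its ligands, which are made as membrane-bound precursors and shed by ADAM proteases, make it pair with itself or with other ERBB receptors, and the RAS-ERK kinase cascade is switched on. Epiregulin (Ereg), HB-EGF (Hbegf), TGF-alpha (Tgfa) and amphiregulin (Areg) bind EGFR, while neuregulin 1 (Nrg1) binds ERBB3 and ERBB4, and HGF acts through another receptor, MET. Sprouty proteins are induced by ERK signalling and damp it, and EGFR ligand genes can themselves be induced by ERK.

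The replicates and some technical controls differed between groups. The median SD between replicates over all tested probe sets was 0.29 to 0.34 in the CDKO groups and 0.07 to 0.10 in the WT groups (log2), while the tests used a pooled spread. The 18S ribosomal RNA control read 11.6 and 11.2 in untreated WT cells and 10.2 in CDKO 1 µM replicate 2, against 5.21 to 8.44 in the other 7 arrays. The Gapdh 3' minus 5' difference was 0.67 to 1.58 in the same 3 arrays and -0.31 to 0.07 elsewhere. Hybridisation spike-ins averaged 9.65 to 10.2 in both CDKO 1 µM arrays, CDKO untreated replicate 2 and CDKO 5 µM replicate 2, and 11.0 to 11.7 in the other 6 arrays. The 10 fibroblast markers all reached 4, with a median level of 11.0 to 13.9 per array, and 0 of 5 endothelial markers did. Of 15 macrophage and leukocyte markers 13 reached 4, and the log2 of their summed level was 11.6 to 12.6 in untreated CDKO, 10.8 to 11.5 at 1 µM, 11.8 to 13.4 at 5 µM, 14.1 in both WT arrays at 5 µM and 13.3 to 13.4 in untreated WT cells. Of 7 epithelial markers 6 reached 4, of 7 muscle markers 5 and of 5 neural and glial markers 3. The epithelial sum was 7.29 to 9.14 in the CDKO groups, 8.85 and 8.96 in WT cells at 5 µM and 10.5 and 10.6 in untreated WT cells. The muscle sum was 5.95 to 6.37 in the CDKO groups, 6.27 and 6.29 in WT cells at 5 µM and 9.34 and 9.16 in untreated WT cells. The neural and glial sum was 7.86 to 9.26 in the CDKO groups and 7.42 to 8.02 in the WT groups. The median level of 14 mitosis genes ranged from 6.41 to 8.54 in CDKO arrays and was 7.31 and 7.22 in WT arrays at 5 µM and 9.28 and 9.38 in untreated WT arrays.

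Dicer1 itself was read by 2 probe sets, whose place relative to the deleted part is unknown here, and they do not check the deletion. At 1427941_at the arrays read 7.09 and 5.99 in untreated CDKO cells, 5.40 and 8.30 at 1 µM and 5.83 and 5.78 at 5 µM. They read 7.64 and 7.19 in WT cells at 5 µM and 8.97 and 9.10 in untreated WT cells. CDKO cells at 5 µM differed from untreated ones by -0.73 ± 0.83 (SE; limma, adjusted p = 0.929) there and -0.44 ± 0.26 (adjusted p = 0.746) at the other probe set, 1460571_at. That probe set read 6.33 and 5.93 in untreated CDKO cells, 6.10 and 6.55 at 1 µM and 5.90 and 5.49 at 5 µM, and 5.90 and 5.94 in WT cells at 5 µM, against 7.31 and 7.16 untreated. Untreated WT cells lay above all other arrays. It was lower at 5 µM in WT cells (-1.32 ± 0.26, adjusted p = 0.0266), between untreated CDKO and WT cells (-1.11 ± 0.26, adjusted p = 0.0481) and at 5 µM over both lines (-0.88 ± 0.18, adjusted p = 0.0354).

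Among microRNAs that Dicer makes, miR-7 is known to repress EGFR in human cells, and miR-21 is known to repress Sprouty genes, Spry1 among them in mouse heart. Their mature sequences are shown because their known targets are among the genes described here. These arrays did not measure microRNAs, and target sites in the transcripts were not searched. Sequences are from RefSeq (GRCm38.p6), 5' to 3', with the seed (bases 2 to 8) in capitals. The miR-7a sequence is encoded at chr7:78888295-78888317 (plus strand) and chr13:58392841-58392863 (minus strand), and miR-21a at chr11:86584120-86584141 (minus strand).
mmu-miR-7a-5p: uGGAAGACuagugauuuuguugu
mmu-miR-21a-5p: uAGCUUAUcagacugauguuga

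**Figure D1:**
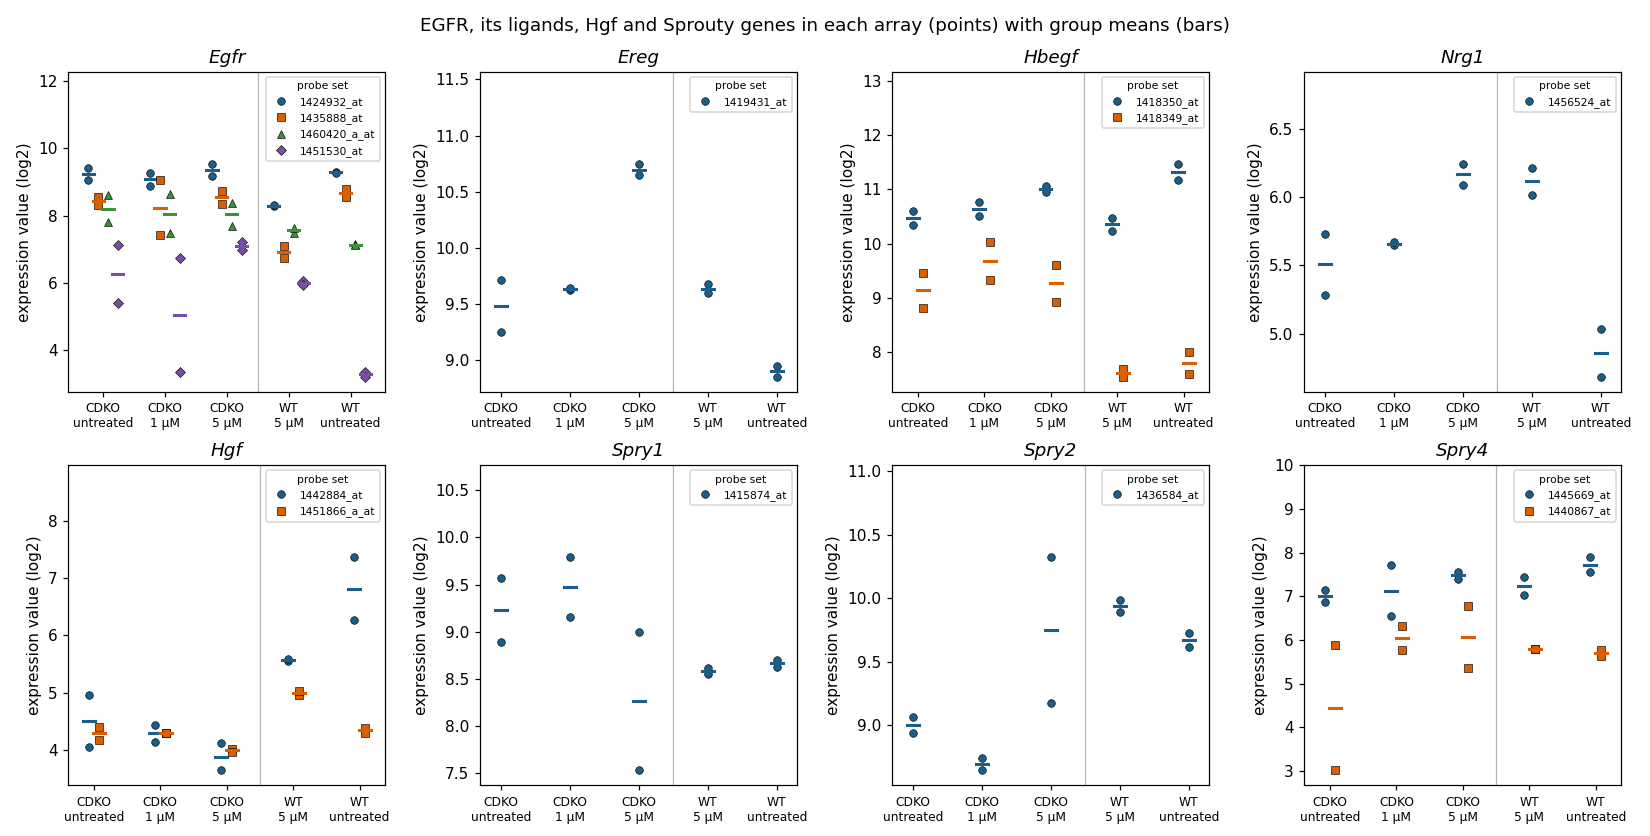
Expression value (log2) of the 14 tested probe sets in each array (points, 2 per group) with group means (bars), 1 panel per gene, with CDKO groups left and WT groups right of the grey line. Ereg and Nrg1 were highest at 5 µM within each line, the probe sets of Egfr and those of Hgf differed in direction between WT groups, and Spry1 and Spry2 at 5 µM had a wide gap between both CDKO arrays.

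The ligand Ereg read higher at 5 µM OHT than untreated in both lines, a difference that passed the test over both lines and in neither line alone. Its probe set 1419431_at read 9.24 and 9.71 in untreated CDKO cells, 9.62 and 9.64 at 1 µM, and 10.74 and 10.64 at 5 µM. In WT cells it read 9.67 and 9.60 at 5 µM and 8.94 and 8.85 untreated. Within each line the 5 µM arrays all lay above the untreated ones, while the arrays at 1 µM lay within the range of the untreated CDKO arrays. Here and below, separation of arrays is a description only. WT arrays parted for Spry1 too, where the difference was -0.08, and the share of all probe sets that parted was not computed. In order of level the group means ran from 10.69 ± 0.07 in CDKO cells at 5 µM through 9.63 ± 0.05 in WT cells at 5 µM, 9.63 ± 0.01 in CDKO cells at 1 µM and 9.48 ± 0.33 in untreated CDKO cells to 8.90 ± 0.07 in untreated WT cells (SD, n = 2 each). The middle 3 groups overlapped.

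The difference at 5 µM in CDKO cells was 1.22 ± 0.21 (log2, SE; limma, adjusted p = 0.111). It was 0.16 ± 0.21 at 1 µM (adjusted p = 0.924) and 1.06 ± 0.21 between 5 µM and 1 µM (adjusted p = 0.149). The WT difference was 0.74 ± 0.21 (adjusted p = 0.0684), and the difference between the responses of the 2 lines was 0.48 ± 0.30 (adjusted p = 0.552). Averaged over both lines, a comparison that was added after the values had been seen and shares its arrays with those within lines, Ereg rose by 0.98 ± 0.15 (adjusted p = 0.0146). Within CDKO arrays of the higher spike-in level the difference between 5 µM and untreated was 1.50 and within those of the lower level 0.94 (1 array against 1 each). In bulk samples such as these, fewer cells of a type and less RNA per cell cannot be told apart.

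Nrg1, read by 1456524_at, followed the same order within each line. It read 5.28 and 5.73 in untreated CDKO cells, 5.65 and 5.67 at 1 µM and 6.09 and 6.24 at 5 µM. In WT cells it read 6.21 and 6.01 at 5 µM, against 5.03 and 4.69 untreated. Treated arrays at 5 µM lay above all 4 untreated arrays of either line. Nrg1 rose by 1.25 ± 0.23 in WT cells (limma, adjusted p = 0.0233) and by 0.96 ± 0.17 over both lines (adjusted p = 0.0212). The CDKO difference at 5 µM was 0.66 ± 0.23 and did not pass (adjusted p = 0.438), nor did the difference between the lines in response (-0.59 ± 0.33, adjusted p = 0.506).

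Of the 14 tested probe sets 2 were called higher and 0 lower over both lines, where 7.02% of all tested probe sets were called, 3.13% higher and 3.88% lower. With the class of the 18S control as a block, an alternative also added after the values had been seen, Ereg stood at 0.99 (adjusted p = 0.0989) and Nrg1 at 0.97 (adjusted p = 0.124), so the sizes were kept and the calls lost. That block rests on the 2 arrays at 1 µM, the only group that holds both classes. When any 1 of the 4 WT arrays was left out 0 of the 14 passed (0.484% to 1.3% of all), and without CDKO untreated replicate 1 or CDKO 5 µM replicate 1 only Ereg did. Without either 1 µM array 4 passed (17.8% of all), and without replicate 2 of CDKO untreated (11.8%) or CDKO 5 µM (8.19%) 3 did.

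Hbegf was measured by 2 tested probe sets that gave different pictures. At 1418350_at the arrays read 10.60 and 10.34 in untreated CDKO cells, 10.51 and 10.77 at 1 µM, and 11.06 and 10.96 at 5 µM. In WT cells the same probe set read 10.48 and 10.24 at 5 µM and 11.18 and 11.47 untreated, so that the groups did not overlap and ran in the opposite order to CDKO cells. It fell by 0.97 ± 0.22 in WT cells (log2, SE; limma, adjusted p = 0.0387), while the CDKO difference at 5 µM was 0.54 ± 0.22 (adjusted p = 0.524). The difference between the responses of the lines was 1.51 ± 0.31 and did not pass (adjusted p = 0.132).

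The other Hbegf probe set, 1418349_at, parted the lines rather than the treatments. It read 8.81 and 9.46 in untreated CDKO cells, 9.32 and 10.02 at 1 µM and 8.92 and 9.61 at 5 µM, against 7.54 and 7.69 in WT cells at 5 µM and 7.59 and 7.99 in untreated WT cells. All 6 CDKO arrays lay above all 4 WT arrays. The change in WT cells was -0.18 ± 0.37 (adjusted p = 0.793). CDKO cells exceeded WT cells by 1.65 ± 0.37 at 5 µM (adjusted p = 0.0823) and by 1.34 ± 0.37 untreated (adjusted p = 0.0767), neither of which passed.

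Egfr was read by 4 tested probe sets. The strongest, 1424932_at, read 9.40 and 9.07 in untreated CDKO cells, 8.87 and 9.28 at 1 µM, and 9.52 and 9.16 at 5 µM. In WT cells it read 8.27 and 8.32 at 5 µM and 9.31 and 9.27 untreated. Egfr fell by 0.99 ± 0.24 with OHT in WT cells on this probe set (limma, adjusted p = 0.0452). WT cells at 5 µM lay below every other array, and the other 4 groups overlapped. CDKO cells differed by 0.11 ± 0.24 at 5 µM (adjusted p = 0.977), and the difference between the lines in response was 1.10 ± 0.34 (adjusted p = 0.268).

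The other Egfr probe sets did not agree in direction in WT cells. At 1435888_at the WT arrays read 7.09 and 6.75 at 5 µM and 8.80 and 8.54 untreated, a difference of -1.75 ± 0.49 (adjusted p = 0.0641). At 1460420_a_at they read 7.47 and 7.64 at 5 µM and 7.15 and 7.11 untreated (0.43 ± 0.44, adjusted p = 0.559). At 1451530_at they read 6.06 and 5.93 at 5 µM and 3.34 and 3.21 untreated (2.72 ± 1.01, adjusted p = 0.12). The differences were thus below 0 on a pair of probe sets, of which 1424932_at passed, and above 0 on the other pair, of which none passed. In CDKO cells 1435888_at read 8.56 and 8.32 untreated, 7.41 and 9.06 at 1 µM and 8.73 and 8.35 at 5 µM. There 1460420_a_at read 7.80 and 8.61 untreated, 8.63 and 7.49 at 1 µM and 7.69 and 8.38 at 5 µM, and 1451530_at read 5.39 and 7.13, 6.73 and 3.36, and 6.96 and 7.21 at the same doses. On these 3 probe sets the arrays at 1 µM lay further apart than the CDKO group means.

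Some Egfr probe sets moved with the 18S control, whose part in the result was not tested beyond the values given. In the 3 arrays where that control was raised 1451530_at read 3.21 to 3.36, against 5.39 to 7.21 in the other 7. In CDKO cells at 1 µM, where only replicate 2 had a raised control, 1451530_at was lower and 1435888_at higher in replicate 2 than in replicate 1. For 1424932_at the raised arrays (9.27 to 9.31) lay within the range of the others (8.27 to 9.52), though at 1 µM it read 8.87 in replicate 1 and 9.28 in replicate 2. With the 18S class as a block the WT difference of 1424932_at was -0.58 (adjusted p = 0.625). Drug and the state of this control cannot be told apart in WT cells.

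**Figure D2:**
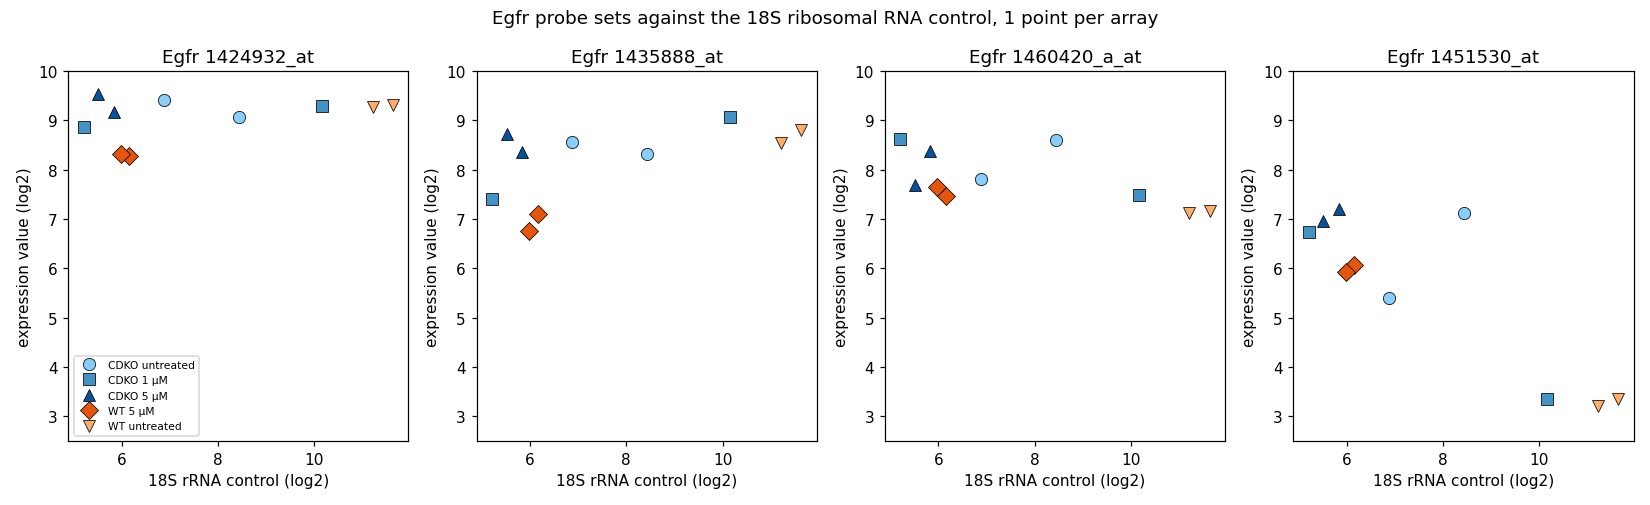
Expression value (log2) of the 4 tested Egfr probe sets against the mean level of the 18S ribosomal RNA control (log2), 1 point per array, with a symbol for each of the 5 groups. At 1451530_at the 3 arrays with the control above 10 read 3.21 to 3.36 and all others 5.39 or more, whereas 1424932_at had its lowest values, 8.27 and 8.32, in WT cells at 5 µM.

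The promoters of Egfr and Hgf are shown because both genes passed a test and had a promoter among those searched here. Each window of 300 bases spans a RefSeq transcript start (GRCm38.p6) and is written 5' to 3' on the plus strand, at chr11:16751953-16752252 for Egfr and chr5:16553245-16553544 for the first of 2 Hgf starts. Searches on both strands covered the TATA box TATAAA, the GC box GGGCGG and the AP-1 site TGANTCA, with matches in capitals.
Egfr: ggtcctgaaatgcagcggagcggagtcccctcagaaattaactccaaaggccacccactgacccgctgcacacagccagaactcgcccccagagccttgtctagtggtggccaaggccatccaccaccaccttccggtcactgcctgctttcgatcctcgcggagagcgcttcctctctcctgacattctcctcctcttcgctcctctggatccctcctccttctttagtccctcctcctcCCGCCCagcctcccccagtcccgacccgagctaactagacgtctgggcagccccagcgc
Hgf: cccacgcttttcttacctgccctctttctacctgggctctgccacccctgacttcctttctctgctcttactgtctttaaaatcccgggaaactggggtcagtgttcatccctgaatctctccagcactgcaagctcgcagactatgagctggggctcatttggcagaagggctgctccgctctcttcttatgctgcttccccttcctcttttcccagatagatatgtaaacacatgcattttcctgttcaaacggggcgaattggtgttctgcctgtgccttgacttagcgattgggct

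The Egfr window was 62.3% G or C and held 1 GC box, on the minus strand, and the Hgf window was 51.3% G or C and held none of the 3 motifs. Promoters of 6 of the genes were matched by symbol, with 7 windows in all. Members on chromosome 18, Hbegf and Spry4, were left out of this search, so nothing is said of their promoters. The shares of all promoters were counted without that exclusion. A GC box was found in 4 of the 7, and in 35.7% of all 32851 promoters of the same length. The TATA box was found in 1 of the 7 (Areg), against 13.6% of all, and the AP-1 site in 0, against 7.81%. A match describes letters only.

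Hgf, the ligand of MET and a typical product of fibroblasts, was lower in CDKO than in WT cells on each of its 2 tested probe sets in 1 comparison. At 1442884_at it read 4.96 and 4.04 in untreated CDKO cells, 4.44 and 4.13 at 1 µM and 3.65 and 4.11 at 5 µM. The WT arrays read 5.54 and 5.59 at 5 µM and 6.26 and 7.36 untreated. All 6 CDKO arrays lay below all 4 WT arrays. On this probe set the difference between the untreated lines was -2.31 ± 0.43 and passed (limma, adjusted p = 0.0258). At 5 µM the difference between the lines was -1.68 ± 0.43 (adjusted p = 0.117).

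At the second Hgf probe set, 1451866_a_at, untreated CDKO arrays read 4.40 and 4.18, those at 1 µM 4.30 and 4.29, and those at 5 µM 4.02 and 3.96. WT arrays read 4.96 and 5.03 at 5 µM and 4.38 and 4.29 untreated. The difference between CDKO and WT cells at 5 µM was -1.01 ± 0.18 and passed (adjusted p = 0.0436), and the untreated lines differed by -0.05 ± 0.18 (adjusted p = 0.903). The WT response to OHT had opposite signs on these probe sets, -1.24 ± 0.43 (adjusted p = 0.105) and 0.66 ± 0.18 (adjusted p = 0.0625). CDKO means of 3.88 to 4.50 were close to the level under which probe sets were not tested.

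The summed macrophage and leukocyte markers were also higher in both WT groups than in 5 of the 6 CDKO arrays, and their part in the Hgf difference was not tested. In the CDKO arrays at 5 µM the sums were 13.4 and 11.8, and 1442884_at read 3.65 and 4.11, values near the filter level of 4. Single arrays at this level decide nothing about that part. The summed muscle and epithelial markers were highest in untreated WT cells, as was 1442884_at, and their part in the Hgf difference was not tested either.

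**Figure D3:**
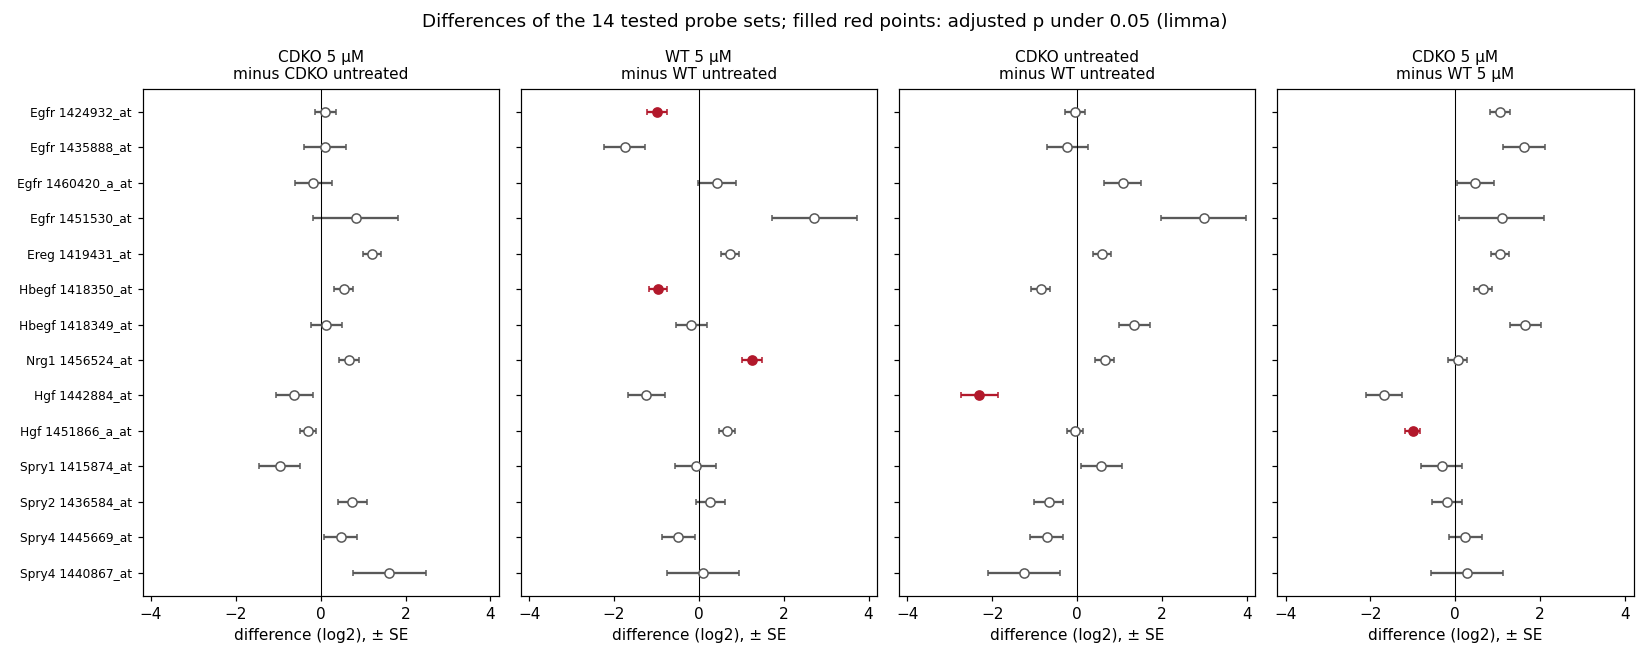
Log2 difference ± SE of the 14 tested probe sets in 4 comparisons, each named above its panel as the upper group minus the lower. Filled red points passed an adjusted p of 0.05: none in CDKO cells at 5 µM against untreated, Egfr 1424932_at, Hbegf 1418350_at and Nrg1 in WT cells, and 1 Hgf probe set in each comparison of the lines.

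The Sprouty genes passed the test in none of the 9 comparisons. Spry1, which in mouse kidney restrains growth factor signalling, read at 1415874_at 8.89 and 9.57 in untreated CDKO cells, 9.79 and 9.15 at 1 µM, and 7.53 and 8.999 at 5 µM. WT arrays read 8.61 and 8.55 at 5 µM and 8.62 and 8.70 untreated. CDKO cells at 5 µM differed by -0.96 ± 0.48 (limma, adjusted p = 0.665), with replicate 1 at 5 µM lowest of all arrays, and the WT difference was -0.08 ± 0.48 (adjusted p = 0.939).

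Spry2, at 1436584_at, ran the other way. It read 8.94 and 9.07 in untreated CDKO cells, 8.75 and 8.65 at 1 µM and 10.32 and 9.18 at 5 µM, and 9.99 and 9.89 in WT cells at 5 µM, against 9.62 and 9.73 untreated. Arrays at 5 µM lay above untreated arrays in each line, by 0.74 ± 0.35 in CDKO cells (adjusted p = 0.616) and by 0.27 ± 0.35 in the WT line (adjusted p = 0.651), and neither difference passed. The CDKO difference was 1.38 between the arrays of the higher spike-in level and 0.11 between those of the lower. Across the 10 arrays, which share lines and treatments, Spry1 and Spry2 had a Pearson r of -0.852, and Ereg and Nrg1 of 0.828, given as a description.

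Spry4 was read by 2 tested probe sets. At 1445669_at it read 6.86 and 7.15 in untreated CDKO cells, 6.55 and 7.72 at 1 µM and 7.56 and 7.40 at 5 µM, and 7.03 and 7.44 in WT cells at 5 µM, against 7.89 and 7.56 untreated. The 3 arrays with a raised 18S control held the highest values (7.56 to 7.89), level at their lower end with the top of the other arrays (7.56). At 1440867_at the untreated CDKO arrays read 3.03 and 5.87, those at 1 µM 5.76 and 6.31 and those at 5 µM 5.37 and 6.77. WT arrays read 5.79 and 5.80 at 5 µM and 5.64 and 5.77 untreated. The gap between the untreated CDKO arrays was wider than any difference between group means. The differences at 5 µM in CDKO cells were 0.47 ± 0.38 (adjusted p = 0.862) and 1.62 ± 0.86 (adjusted p = 0.693) on these probe sets.

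By comparison, the calls among the 14 probe sets were few. In CDKO cells 0 of 14 passed at 5 µM against untreated, where limma called 0.145% of all tested probe sets, and 3 had an unadjusted p under 0.05 (8.89% of all). At 1 µM against untreated 0 of 14 passed (0% of all), with 0 at an unadjusted p under 0.05 (3.43% of all), and at 5 µM against 1 µM 0 of 14 passed (0.169% of all), with 3 at an unadjusted p under 0.05 (12.9% of all). The median difference of the 14 was 0.30, 0.07 and 0.29 in these comparisons, against -0.00, -0.04 and 0.02 over all tested probe sets.

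In WT cells 3 of the 14 passed, where 9.23% of all tested probe sets did. Nrg1 was higher (1 of 14, 3.51% of all), and Egfr 1424932_at and Hbegf 1418350_at were lower (2 of 14, 5.73% of all). When any 1 of the 4 WT arrays was left out 0 passed (0.309% to 1.09% of all), and with the 18S class as a block 0 did (0.14% of all). With array weights 9 of 14 passed and 60.2% of all, with the 4 WT arrays alone 8 and 54.7%, and without either 1 µM array 7 and 21.8%, so the members' count moved with that of all probe sets. Egfr 1424932_at was also lost without the filter and with each array centred on its median. The mitosis and muscle markers moved with these WT groups, as did the summed epithelial markers, and their part in the result was not tested. The difference between the lines in response had 0 of 14 calls (0.348% of all; 4 at an unadjusted p under 0.05, as were 12.5% of all).

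Between the lines, 1 of 14 passed untreated (6.58% of all, 4.28% lower) and 1 at 5 µM (1.8% of all, 0.856% lower), an Hgf probe set each time and lower in CDKO cells. The untreated count was 0 with the 18S class as a block (0.276% of all) and with the arrays of both groups alone (2.36%). The untreated call was also lost without CDKO untreated replicate 2, WT untreated replicate 2 or either WT 5 µM array. The count at 5 µM was 0 with the 4 arrays alone (0.00967% of all). The call at 5 µM was also lost without any 1 of the 5 µM arrays of either line or of the untreated WT arrays. Fits with an array left out leave 1 array in a group. Without the filter the counts were 0 for the untreated lines (2.3% of all) and 2 at 5 µM (0.884%).

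The design text of the series sets treated CDKO cells (both doses) against the other 3 groups, and there 3 of 14 passed (4.08% of all), 2 higher (1.19% of all) and 1 lower (2.88% of all). Hbegf 1418349_at was higher by 1.29 ± 0.24 (adjusted p = 0.0318), Ereg by 0.83 ± 0.14 (adjusted p = 0.0236), and Hgf 1442884_at was lower, with a difference of -1.54 ± 0.28 (adjusted p = 0.0309). With the line as a term these were 0.34 for Hbegf, 0.69 for Ereg and -0.42 for Hgf, and 0 of 14 passed (0% of all). None passed without the untreated WT group (0.0725% of all), with array weights (0.503%) or with a block for the spike-in class (1.25%). The groups overlapped for all 3. Calls were also lost when single arrays were left out, among them any WT array, CDKO untreated replicate 1, and any CDKO array at 1 µM or 5 µM. Such fits leave 1 array in a group.

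Other feedback inhibitors of receptor and ERK signalling were higher at 5 µM over both lines for 3 of 16 measured genes and lower for 0, where 3.15% of all genes were higher and 2.61% lower. These lists hold 1 probe set per gene and were chosen with earlier results known. Dusp4, a phosphatase that inactivates ERK, rose by 1.84 ± 0.35 (limma, adjusted p = 0.0275). It read 9.03 and 10.66 in untreated CDKO cells, 10.91 and 10.37 at 1 µM and 11.91 and 11.62 at 5 µM, and 10.92 and 10.86 in WT cells at 5 µM, against 9.27 and 8.99 untreated. Dusp6, a cytoplasmic ERK phosphatase, rose by 0.81 ± 0.15 (adjusted p = 0.0285), and Errfi1, which binds and inhibits EGFR itself, by 0.83 ± 0.17 (adjusted p = 0.0364). The list's median was 0.38, against -0.05 over all genes.

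Each line alone gave no call in that list. In CDKO cells at 5 µM Errfi1 differed by 1.00 ± 0.25 (adjusted p = 0.227) and Dusp4 by 1.92 ± 0.49 (adjusted p = 0.248), and at 1 µM Dusp4 by 0.79 ± 0.49 (adjusted p = 0.887). In WT cells Dusp6 differed by 0.80 ± 0.22 (adjusted p = 0.0606) and Lrig2, of a family of EGFR-binding membrane proteins, by -2.09 ± 0.52 (adjusted p = 0.0506). Lrig2 read 4.91 and 4.56 in WT cells at 5 µM and 7.02 and 6.63 untreated.

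**Figure D4:**
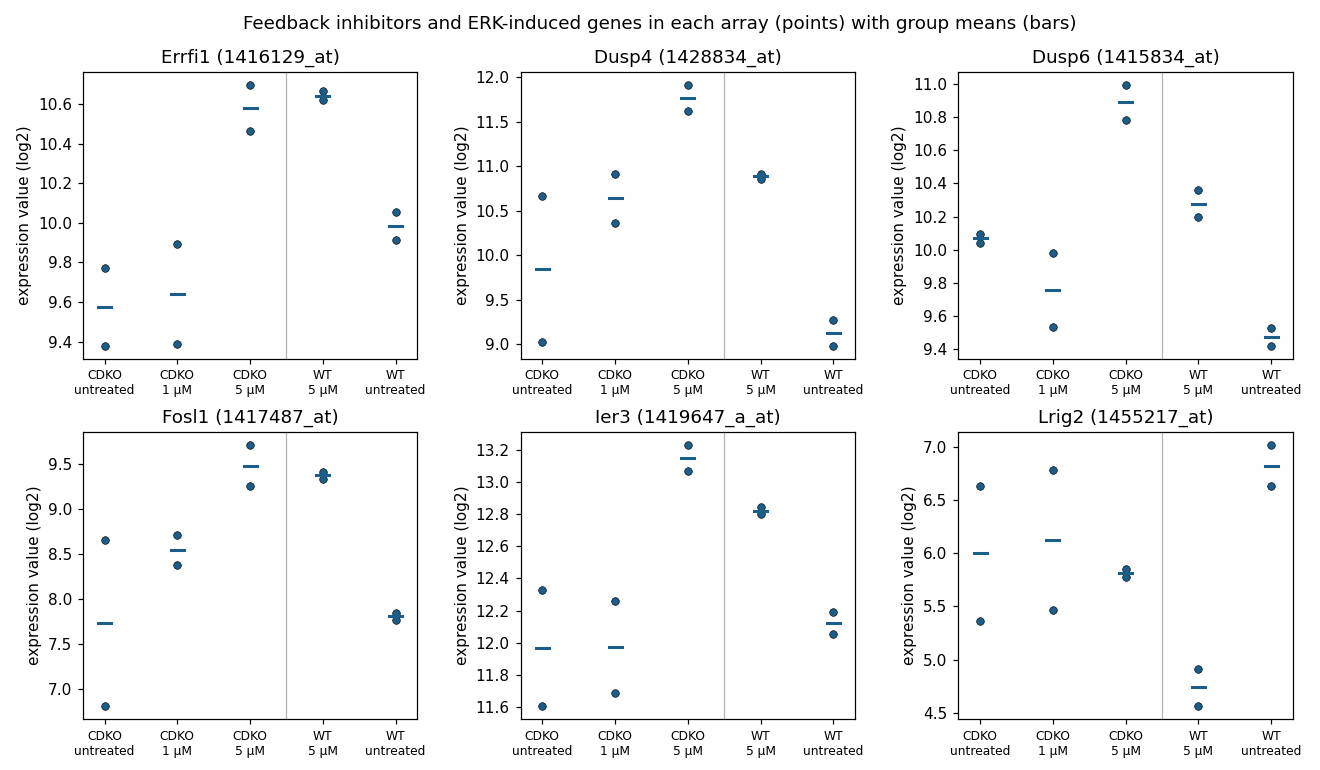
Expression value (log2) of 4 feedback inhibitors (Errfi1, Dusp4, Dusp6, Lrig2) and 2 ERK-induced genes (Fosl1, Ier3) in each array (points, 2 per group) with group means (bars). For all but Lrig2 the 5 µM arrays all lay above the untreated ones in each line, as Dusp4 shows with 11.91 and 11.62 at 5 µM against 9.03 and 10.66 untreated in CDKO cells. These genes were picked by their test results, so the separation adds no support. WT replicates lay close together (median SD 0.07 at 5 µM and 0.10 untreated over all tested probe sets). The share of all genes without overlap was not computed.

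ERK-induced transcription factors and targets were higher over both lines for 2 of 16 measured genes and lower for 0 (3.15% and 2.61% of all genes). Fosl1, an AP-1 component, rose by 1.65 ± 0.38 (adjusted p = 0.044). It read 6.81 and 8.66 in untreated CDKO cells, 8.71 and 8.37 at 1 µM, and 9.25 and 9.70 at 5 µM, and 9.41 and 9.33 in WT cells at 5 µM, against 7.77 and 7.85 untreated. Ier3, an immediate early gene, rose by 0.94 ± 0.21 (adjusted p = 0.043). The list's median was 0.34, and 11 of the 16 differences were above 0. Egr1, Egr2 and Egr3 ran the other way in WT cells. There Egr1 read 10.78 and 10.81 at 5 µM, against 11.74 and 11.73 untreated. Neither line alone gave a call, and Fosl1 differed by 1.75 ± 0.53 at 5 µM in CDKO cells (adjusted p = 0.34) and by 1.56 ± 0.53 in WT cells (adjusted p = 0.0994).

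Of 8 measured genes of ligand shedding and the HGF system Adam12 fell over both lines (-1.05 ± 0.22, adjusted p = 0.0373) and 0 rose (2.61% and 3.15% of all genes). In WT cells Adam12 (-1.62 ± 0.32, adjusted p = 0.0265) and Adam10 (-1.02 ± 0.21, adjusted p = 0.0302), which encode membrane proteases, fell, and 0 rose, where 4.78% of all genes were lower and 3.46% higher. Met, the HGF receptor, did not pass, at 1.32 ± 0.33 between CDKO and WT cells at 5 µM (adjusted p = 0.11). Of the other ERBB ligands and receptors 2 of 9 were measured above background, Erbb2 and Erbb3, and neither passed (-0.89 ± 0.35 for Erbb2 over both lines, adjusted p = 0.151).

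Among 12 measured adaptors and core kinases of the RAS-ERK cascade 1 rose and 1 fell over both lines, Map2k1, which encodes the ERK kinase MEK1 (0.90 ± 0.21, adjusted p = 0.0494), and the docking protein gene Gab1 (-1.09 ± 0.24, adjusted p = 0.0398), where 3.15% of all genes were higher and 2.61% lower. In WT cells, where 3.46% of all genes were higher and 4.78% lower, Map2k1 rose by 1.39 ± 0.30 (adjusted p = 0.0348), Gab1 fell by 1.87 ± 0.34 (adjusted p = 0.021) and Sos2, an activator of RAS, fell by 0.99 ± 0.18 (adjusted p = 0.0211). In CDKO cells 0 genes of these 5 lists passed at 5 µM against untreated, where 0.141% of all genes did.

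All calls of pathway genes named here, in WT cells and over both lines, were lost with the 18S class as a block and when any 1 of the 4 WT arrays was left out. With the block the differences over both lines were 1.57 for Dusp4, 0.59 for Dusp6, 0.58 for Errfi1, 1.48 for Fosl1, 0.65 for Ier3, -0.72 for Adam12, -0.56 for Gab1 and 0.58 for Map2k1. In WT cells they were -0.97 for Adam12, -0.62 for Adam10, -0.81 for Gab1, 0.75 for Map2k1 and -1.03 for Sos2. Each kept its direction. Without the filter on low values the calls over both lines were lost except that of Dusp6, and the WT calls of Adam12, Gab1 and Map2k1 were lost. Over both lines Ier3 was also lost with each array centred on its median, and Map2k1 with that centring, with a filter at 6 and with quantile normalization. Without CDKO 5 µM replicate 1 the calls over both lines of all 8 genes were also lost, and without CDKO untreated replicate 1 those of Adam12, Dusp6, Errfi1, Ier3, Gab1 and Map2k1. Adam12 was lost without CDKO untreated replicate 2, and Fosl1, Ier3, Gab1 and Map2k1 without CDKO 5 µM replicate 2.

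Genes with the most similar profile were sought by Pearson r over the 10 arrays among 10631 other genes, as a description. Each member stood for its probe set with the highest mean, 1424932_at for Egfr, 1418350_at for Hbegf and 1442884_at for Hgf. Neighbours of the members' other probe sets were not sought. Ereg was most like Procr (0.989) and Uchl1 (0.987), Nrg1 like 1110008P14Rik (0.967) and Nkain2 (0.963), and Egfr like Foxd1 (0.969) and E2f3 (0.965). Hbegf was most like Eif3a (0.941) and Smad1 (0.916), and Hgf like Zfp458 (0.967) and Gtf3c2 (0.967). For the Sprouty genes the nearest were Nxn (0.961) and Notch3 (0.932) for Spry1, Gsdme (0.938) and Tmem267 (0.934) for Spry2, and Klhl2 (0.925) and Rundc1 (0.889) for Spry4. The arrays share lines, treatments and controls, so high values arise for many genes.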

How the data were processed

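The authors deposited log2 values per probe set and array, which the submitters' processing notes credit to GCRMA (version and chip definition not given in the sources used here). Titles gave the groups, although the description calls every sample a conditional knockout. After 64 control probe sets were left out, 20681 whose highest group mean reached 4 were fitted together with limma 3.58.1 (R 4.3.3; lmFit, eBayes) as 5 groups with 5 residual degrees of freedom. P-values were adjusted by Benjamini-Hochberg over all of them, and a call had an adjusted p under 0.05. Lists used 1 probe set per gene, that with the highest mean (10632 genes). The annotation gave 1 symbol for 34958 probe sets, several for 932 and none for 9160. The fit was tested on simulated data for 5 µM against untreated CDKO cells, with 50 changed probe sets of each size. It recovered 10% of log2 changes of 1, 34% of 2, 68% of 3 and 90% of 4. Most changes of 1 were thus missed there. The simulated comparison called 104 probe sets and the same comparison of the data 30, so recovery in the data may differ.

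The members, lists and tests were chosen with earlier results of these data known. All tested probe sets of the members were named. From each list and comparison at most 4 called genes with the largest change, or at most 2 with the smallest p where none passed, could be named, and for each member the 2 genes most like it. The small number of arrays limits the precision. Alternatives covered the filter, normalization, variance prior, array weights, blocks, samples in the fit, probe set choice and each array left out. The comparison over both lines, the 18S block, the line term and the fit without untreated WT cells were added after seeing the data.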

Additional observations from a re-analysis of the deposited data

How the results depend on the processing

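Counts are of the 14 tested probe sets called. For 5 µM in WT cells (3 called) the count was 9 with array weights (60.2% of all probe sets), 8 with the WT arrays alone (54.7%), 5 with the spike-in block (14.4%), 1 with the replicate block (5.75%) and 0 with the 18S block (0.14%). For the untreated lines (1 called, 6.58% of all) it was 2 with a trended robust prior (6.45%). It was also 2 with the replicate block (4.69%) and with the spike-in class (10.7%). It was 0 without the filter (2.3%), with both groups alone (2.36%) and with the 18S block (0.276%). For the lines at 5 µM (1 called, 1.8% of all) it was 2 without the filter (0.884%) and with array weights (2.05%). It was also 2 with the spike-in class (4.56%) and with the 18S block (2.87%). It was 0 with a filter at 6 (1.69%), quantile normalization (1.81%) and the trended robust prior (1.47%). The groups alone (0.00967%) and 1 probe set per gene (1.48%) gave 0 as well. The filter at 6 and the choice of 1 probe set leave that Hgf probe set out. For treated CDKO cells against the other groups (3 called, 4.08% of all) it was 0 with array weights (0.503%) and the spike-in class (1.25%). The line term (0%) and the fit without untreated WT cells (0.0725%) also gave 0. Over both lines (2 called, 7.02% of all) it was 4 with the compared groups alone (17.8%) and 0 with the 18S block (0.87%). For the difference between lines (0 called, 0.348%) it was 1 without the filter (0.431%), Hgf 1451866_a_at. Leaving out single arrays leaves 1 array in a group. It changed the calls for WT cells, for the lines untreated and at 5 µM, and for treated CDKO cells. Calls also changed over both lines and for 5 µM against 1 µM, and not for the remaining comparisons. The cause of these shifts was not tested. Hgf 1442884_at between the untreated lines was lost with array weights (adjusted p = 0.0622, limma), where Egfr 1451530_at passed instead. Replicate numbers did not deviate together in every pair of groups, with correlations of -0.453 (untreated and 1 µM CDKO) to 0.431 (untreated and 5 µM CDKO), and the replicate block is an alternative only. With it Hgf 1451866_a_at at 5 µM was lost (adjusted p = 0.0857), Hgf 1442884_at was lost for treated CDKO cells (0.0563), as were 7 of 8 named pathway calls over both lines, all but Adam12, and the WT calls of Adam10 and Map2k1. No called value of a member or named pathway gene changed direction in any alternative.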
